A study of Mus musculus with 12 samples.

Results

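The aminoacyl-tRNA synthetases described here are 36 genes, taken from the count table by their symbols, out of 50643 genes listed there. Names ending in 2 were taken as mitochondrial, which gave 16 genes, and the other 20 as cytosolic. All 36 were found and had enough counts to be tested, with 128 counts in the lowest library of any member and 18592 in the highest. Each enzyme joins 1 amino acid to its tRNAs, which then deliver it to the ribosome, and the first letter of each gene name is the letter code of that amino acid. Cells keep separate sets for the cytosol and for the mitochondrion, where a few proteins of the respiratory chain are made, and both sets are encoded in the nucleus. Activated lymphocytes are known to raise protein synthesis as they grow and divide, and genes of the cytosolic set are known targets of ATF4, the transcription factor of the integrated stress response.

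The libraries came from natural killer (NK) cells of mouse spleen, prepared by negative selection, a method that removes other cells instead of capturing NK cells. There were 3 libraries in each of 4 groups, all of the C57BL/6 strain. They were Mirc11-/- (knockout) challenged with Listeria, Mirc11-/- unchallenged, wild-type challenged with Listeria and wild-type unchallenged. Mirc11 is a cluster of microRNA genes (Mir23a, Mir27a and Mir24-2), and Listeria is an intracellular bacterium. No source used here gave the age of the mice, the design of the deletion, or the dose, route and time of the challenge. The replicates are described as biological, without a statement that each came from 1 animal, so p-values measure the spread between these libraries. Levels are counts scaled to the library total (CPM), with 17624530 to 23665679 counts per library. Each change is a log2 fold change with its standard error (SE) from edgeR's quasi-likelihood test, and a gene was called at a Benjamini-Hochberg adjusted p below 0.05 over all 16694 genes tested.

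Markers of other spleen cells were present in all groups. The 10 NK cell markers summed to 5010 to 5680 CPM in challenged knockout libraries, 6960 to 7180 in unchallenged knockout, 3700 to 3770 in challenged wild-type and 6610 to 7530 in unchallenged wild-type libraries. In the same order, 10 neutrophil markers summed to 738 to 1150, 467 to 482, 1460 to 1710 and 61 to 62.9 CPM, and 8 erythroid markers to 15300 to 18600, 27600 to 30500, 1290 to 1760 and 8730 to 10100 CPM. The sums of 10 genes of dividing cells were 1130 to 1170, 787 to 819, 1550 to 1700 and 438 to 560 CPM, and no marker of these lists stood at 0 in a whole group. In bulk RNA, fewer cells of a type and less RNA per cell cannot be told apart. The 3 microRNA genes had 0 counts in all 12 libraries, so they check no label. Gm26532, a transcript next to them, had 0.113, 0.498 and 0.149 CPM in unchallenged knockout libraries, against 2.67, 2.35 and 4.88 CPM in unchallenged wild-type ones. It had 0.887, 0.984 and 2.7 CPM in challenged knockout libraries, against 2.34 to 4.27 CPM in challenged wild-type ones. Every challenged knockout library was thus above every unchallenged knockout one (log2 fold change 2.48, edgeR adjusted p = 0.0128), for a reason that was not tested. By this transcript, challenged knockout replicate 3 went against its label. Gm37352, on the same chromosome, had 47.2, 35.5 and 29.7 CPM in challenged knockout and 58.2 to 61.4 in unchallenged knockout libraries. It had 3.33 to 6.75 CPM in challenged wild-type and 3.06 to 6.76 in unchallenged wild-type libraries, so by Gm37352 that replicate lay with its label. Both transcripts were chosen after their values were seen. Xist, made from the inactive X chromosome, measured 526 to 1030 CPM in challenged knockout, 0.362 to 1.08 in unchallenged knockout, 1150 to 1460 in challenged wild-type and 1200 to 2020 in unchallenged wild-type libraries. In the same order the Y-linked Ddx3y measured 44.1 to 80.5, 83.6 to 135, 0 to 0.133 and 0.0546 to 34.6 CPM, the last in unchallenged wild-type replicate 4, so challenged knockout libraries held both transcripts. Sex composition therefore cannot be told apart from genotype, nor from challenge within the knockout. No member lies on a sex chromosome.

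The sets had different median levels per transcript length. In unchallenged wild-type libraries the cytosolic genes had a median of 24.8 CPM per kilobase of the principal transcript (11.3 for Cars to 75.1 for Vars), against 8.02 for the mitochondrial genes (2.38 for Nars2 to 119 for Lars2). Of the 20 members with the highest levels per kilobase, 17 were cytosolic and 3 were mitochondrial. Lars2, the mitochondrial leucyl-tRNA synthetase, led at 119 ± 60 CPM per kilobase (SD, n = 3), and its lowest library (82.2) lay just above the highest (81.9) of Vars, the cytosolic valyl enzyme, at 75.1 ± 6.1. Qars, the glutaminyl enzyme, and Kars, the lysyl enzyme, followed at 49.4 ± 1.1 and 45.3 ± 2.3 CPM per kilobase. Nars, the next in the order, was apart from Kars at 35.1 ± 1.3 CPM per kilobase (highest library 36.5, against a lowest of 43.9 for Kars), while the neighbours Wars and Mars overlapped at 24.3 ± 1.0 and 24.3 ± 1.6. The order is that of unchallenged wild-type libraries. In challenged wild-type ones Lars2 overlapped Vars, at 60.3 to 148 against 90.4 to 113 CPM per kilobase.

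The first comparison asks how the challenge changed these genes in wild-type mice. Cytosolic synthetase transcripts were higher after challenge almost throughout the family, led by Wars, Cars and Aars, whereas mitochondrial ones went in both directions. Of 20 cytosolic genes, 19 rose, 0 fell and 1 was not called (edgeR), where 63.4% of all tested genes were called, 32.4% higher and 30.9% lower. Their median log2 fold change was 0.63 (0.07 to 1.38), beside -0.01 over all tested genes. Of 16 mitochondrial genes, 3 rose, 5 fell and 8 were not called, with a median of -0.08 (-0.53 to 0.61). Libraries of the challenged and unchallenged wild-type groups did not overlap for 18 of the cytosolic and 8 of the mitochondrial genes, against 70.3% of all tested genes.

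Wars, the cytosolic tryptophanyl-tRNA synthetase and a known target of interferon-gamma, measured 160, 161 and 178 CPM in challenged wild-type libraries, against 65.4, 69.8 and 70.9 CPM in unchallenged ones. It rose by 1.38 ± 0.07 on the log2 scale (SE, edgeR adjusted p = 1.26e-10), the largest change of the 36 members. Every challenged library was above every unchallenged one. The gene lies on the minus strand of chromosome 12 from 108860030 to 108894174 (GRCm38), Cars on the minus strand of chromosome 7 from 143557230 to 143600090 and Aars on the plus strand of chromosome 8 from 111033144 to 111057664. Cars, which charges cysteine, had 59.5, 58.5 and 62.8 CPM in challenged wild-type libraries, against 27.4, 27.5 and 28.4 CPM in unchallenged ones. Aars, which charges alanine, had 172, 186 and 199 CPM in challenged wild-type libraries, against 88, 91.6 and 84.2 CPM in unchallenged ones. Cars rose by 1.22 ± 0.07 and Aars by 1.18 ± 0.08 (edgeR adjusted p = 5.63e-10 and 2.9e-09), and neither gene's groups overlapped. Aars shares 14.3% of its exon length with Exosc6 on the same strand, and Exosc6 was not called (0.24, edgeR adjusted p = 0.828).

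These 3 enzymes are not among those carried in the multi-synthetase complex, an assembly held together by scaffold proteins. The same holds for the products of 9 other cytosolic genes, and the 12 are called free here. All 12 free synthetases rose in wild-type (median 0.62, 0.26 to 1.38). Gars, the glycyl enzyme, whose gene encodes both the cytosolic and the mitochondrial form, had 121, 117 and 125 CPM in challenged wild-type libraries, against 82.1, 86.2 and 77.4 CPM in unchallenged ones, and rose by 0.67 ± 0.06. Nars, the asparaginyl enzyme, had 143, 143 and 140 CPM in challenged wild-type libraries, against 98.2, 93.3 and 91.5 CPM in unchallenged ones, and rose by 0.69 ± 0.05. The phenylalanyl enzyme is built from an alpha subunit, encoded by Farsa, and a beta subunit, encoded by Farsb, and the fitted rises were 0.26 ± 0.07 for Farsa and 0.70 ± 0.08 for Farsb. Farsa lost its call under upper-quartile scaling (edgeR adjusted p = 0.0692) and with library totals alone (0.0624), settings that moved the median of all genes in this comparison by -0.11 and -0.10. Hars (histidine), Sars (serine), Tars (threonine), Vars (valine) and Yars (tyrosine) rose by 0.38 to 0.57, with Sars lowest and Vars highest.

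The other 8 cytosolic synthetases are carried in the multi-synthetase complex. Of these 8, 7 rose and 1 was not called (median 0.63, 0.07 to 0.87). Rars, which charges arginine, had 89.5, 82 and 86.1 CPM in challenged wild-type libraries, against 51, 51.2 and 49.4 CPM in unchallenged ones, and rose by 0.87 ± 0.06 (edgeR adjusted p = 5.83e-09). Kars, the lysyl enzyme, which like Gars serves both compartments from 1 gene, had 167, 156 and 174 CPM in challenged wild-type libraries, against 96.5, 105 and 96.2 CPM in unchallenged ones, and rose by 0.84 ± 0.06. The groups were apart for both genes. Iars (isoleucine) had 133, 126 and 129 CPM in challenged wild-type libraries, against 86.5, 89.1 and 80.7 CPM in unchallenged ones. It rose by 0.70, Dars (aspartate) by 0.65, the bifunctional glutamyl and prolyl enzyme Eprs by 0.62 and Mars (methionine) by 0.56. Lars (leucine) was called at 0.18 ± 0.07 with an edgeR adjusted p of 0.0479, and the call was lost in 11 of 17 alternative settings. Qars, which charges glutamine, had 129, 135 and 142 CPM in challenged wild-type libraries, against 135, 141 and 139 CPM in unchallenged ones. Its groups overlapped and it was not called (0.07 ± 0.06, edgeR adjusted p = 0.297).

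**Figure D1:**
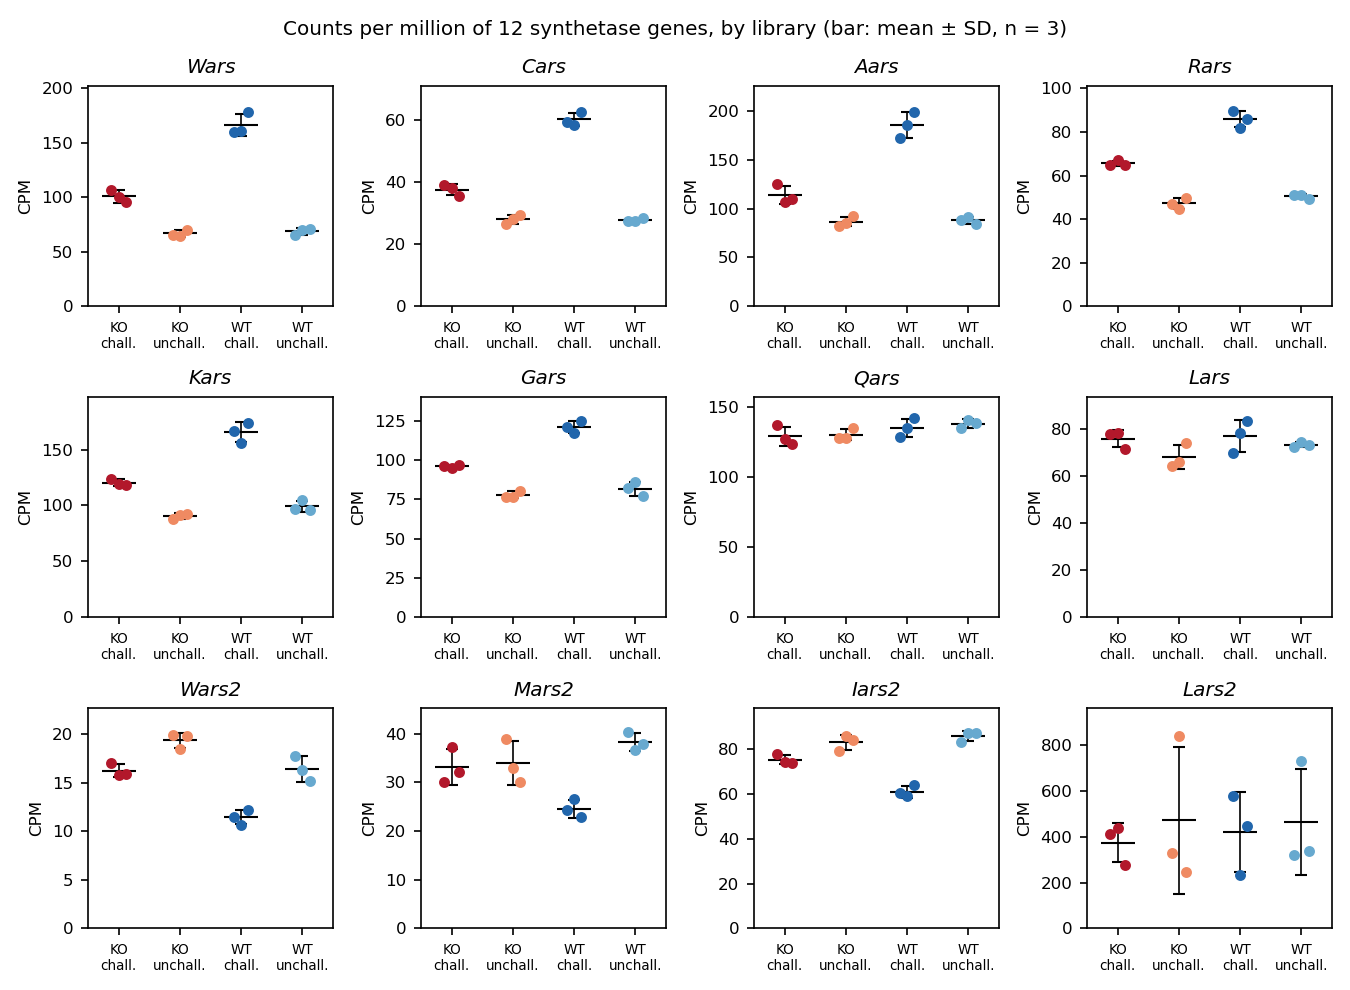
Levels of 12 synthetase genes in CPM (vertical axes, each from 0), with 1 point per library and the mean ± SD of n = 3 for challenged knockout (KO chall.), unchallenged knockout, challenged wild-type (WT chall.) and unchallenged wild-type libraries. Challenged wild-type libraries are highest for Wars (160 to 178 CPM), Cars and Aars, the groups overlap for Qars, and for Wars2, Mars2 and Iars2 challenged wild-type libraries are lowest.

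In the mitochondrial set, the genes that fell were Mars2, Wars2, Iars2, Cars2 and Hars2. Mars2, the mitochondrial methionyl enzyme, had 24.3, 26.6 and 22.9 CPM in challenged wild-type libraries, against 40.3, 36.6 and 37.9 CPM in unchallenged ones. It fell by 0.53 on the log2 scale (SE 0.10, edgeR adjusted p = 0.000258). Its groups did not overlap, and the same holds for the other 4 that fell. Wars2 (tryptophan) had 11.5, 10.7 and 12.2 CPM in challenged wild-type libraries, against 17.8, 16.3 and 15.2 CPM in unchallenged ones. Iars2 (isoleucine) had 60.2, 58.9 and 64 CPM in challenged wild-type libraries, against 83.4, 87.1 and 87 CPM in unchallenged ones. The log2 fold changes were -0.42 ± 0.09 for Wars2 and -0.39 ± 0.06 for Iars2 (edgeR adjusted p = 0.000968 and 4.19e-05). Iars2 shares 22.9% of its exon length with Rab3gap2 on the other strand, whether the counting used strand is not stated, and Rab3gap2 was also called lower (-0.28, edgeR adjusted p = 0.00058). Cars2 (cysteine) had 27.7, 31.3 and 33.2 CPM in challenged wild-type libraries, against 38.1, 43.4 and 41.9 CPM in unchallenged ones. It changed by -0.32 ± 0.09 and Hars2 (histidine) by -0.28 ± 0.08.

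The mitochondrial genes that rose were Ears2, Yars2 and Tars2. Ears2, the mitochondrial glutamyl enzyme, whose product also feeds the making of glutaminyl-tRNA there, had 17.5, 17.1 and 16.9 CPM in challenged wild-type libraries, against 12.9, 11.5 and 11.9 CPM in unchallenged ones. It rose by 0.61 ± 0.10 (edgeR adjusted p = 6.33e-05). Tars2 (threonine) rose by 0.36 ± 0.08 and Yars2 (tyrosine) by 0.37 ± 0.11, and the groups overlapped for Yars2. Of the 8 that were not called, Aars2 lay nearest the threshold (0.35 ± 0.15, edgeR adjusted p = 0.0515), and Vars2 (-0.25), Nars2 (-0.23), Pars2 (-0.13), Lars2 (-0.04), Sars2 (0.04), Fars2 (0.10) and Rars2 (0.16) lay further from it. Lars2 was far more scattered than any other member. It had 411, 438 and 276 CPM in challenged knockout, 330, 841 and 247 in unchallenged knockout, 578, 235 and 449 in challenged wild-type and 320, 732 and 340 in unchallenged wild-type libraries. The second value of both unchallenged groups, their replicate 3, is the highest of its group. The SE of the Lars2 fold change was 0.56 in each direct comparison of groups, and 0.79 for the difference between the challenge responses.

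**Figure D2:**
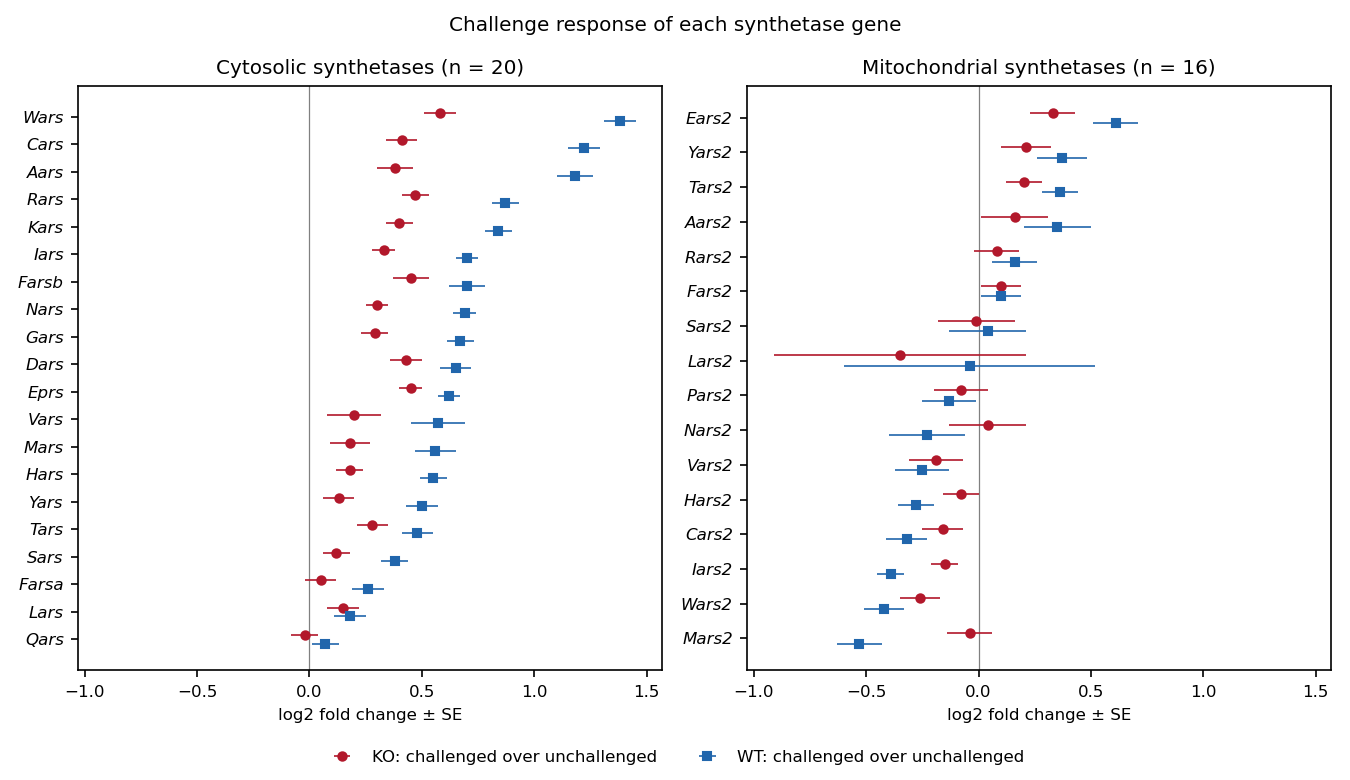
Log2 fold change of challenged over unchallenged libraries for each of 20 cytosolic and 16 mitochondrial synthetase genes, with bars of ± SE, in the knockout (KO, circles) and in wild-type (WT, squares). The cytosolic wild-type values run from 0.07 (Qars) to 1.38 (Wars) and the knockout values from -0.02 to 0.58, while mitochondrial values lie on both sides of 0.

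Promoter sequence was looked at for the motif TGATGNAA, the form of the C/EBP-ATF response element that ATF4 is known to bind, because the cytosolic genes moved together. RefSeq promoter windows of mouse build GRCm38.p6, from 250 bases before to 50 after a gene's start, were found for 27 of the 36 members, 13 cytosolic and 14 mitochondrial. Counting both strands, the motif was in 5 of the 13 cytosolic and 0 of the 14 mitochondrial genes, and in 3.97% of all 32851 windows. The 5 were Aars, Gars, Tars, Iars and Yars. The stretches around the match before the start are shown for Gars and Tars, 5′ to 3′ on the gene's own strand, with the match in capitals, which here reads as the reverse complement of the motif. They lie at chr6:55037851-55038000 on the plus strand (Gars) and chr15:11399666-11399808 on the minus strand (Tars).
Gars: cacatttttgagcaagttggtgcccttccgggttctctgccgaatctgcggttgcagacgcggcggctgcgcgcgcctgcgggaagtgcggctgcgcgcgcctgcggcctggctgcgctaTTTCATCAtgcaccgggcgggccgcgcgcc
Tars: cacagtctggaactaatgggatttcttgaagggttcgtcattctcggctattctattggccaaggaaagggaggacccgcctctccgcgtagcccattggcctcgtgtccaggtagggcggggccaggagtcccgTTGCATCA
In Gars the match began 30 bases before the start and in Tars 15 bases before it. Other motifs were searched in the same way. TTCNNNGAA, the core that STAT factors bind, was in 2 cytosolic genes (Aars and Kars) and 1 mitochondrial gene (Nars2), against 8.3% of all windows. The core of the interferon-stimulated response element was in 1 cytosolic gene (Qars) and 0 mitochondrial genes, against 3.44%. CACGTG, the E-box that MYC is known to bind, was in 4 cytosolic genes (Aars, Farsb, Iars and Tars) and 1 mitochondrial gene (Ears2), against 7.15%. A match describes letters in the window and not a bound site, and Wars, Cars, Rars, Hars, Lars, Nars, Vars, Hars2 and Pars2 had no window.

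Pairing each cytosolic gene with the mitochondrial gene for the same amino acid gave 17 pairs, with Farsa and Farsb both set beside Fars2, and Eprs set beside both Ears2 and Pars2. In wild-type the cytosolic fold change was above the mitochondrial one in 17 of 17 pairs, with a median difference of 0.75 on the log2 scale (0.01 to 1.80). The widest gaps were Wars over Wars2 (1.80), Cars over Cars2 (1.54), Mars over Mars2 (1.10) and Iars over Iars2 (1.09). The narrowest was Eprs over Ears2 (0.01). In the knockout the cytosolic fold change was above in 15 of 17 pairs, with a median difference of 0.26 (-0.08 to 0.84), and Farsa with Fars2 and Yars with Yars2 were the exceptions. No test was made over pairs, which share genes and libraries.

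**Figure D3:**
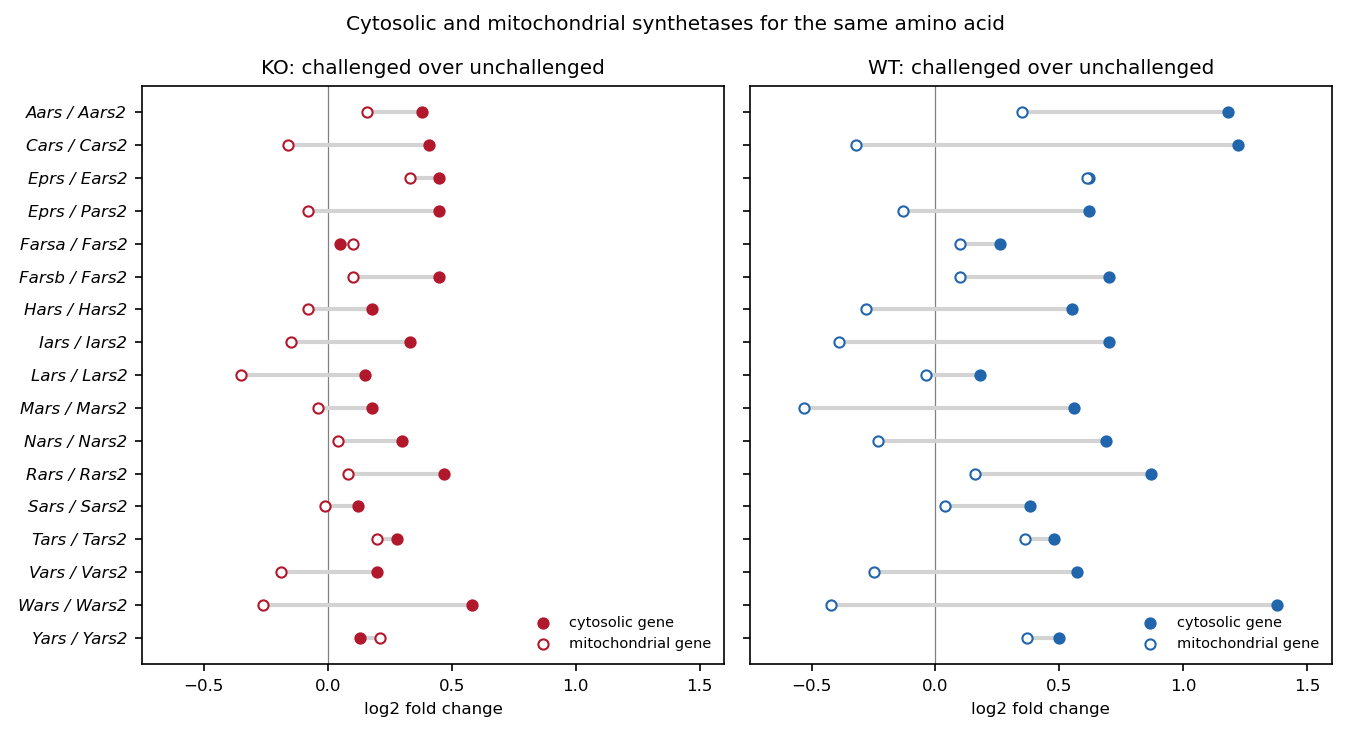
Log2 fold change of challenged over unchallenged libraries for 17 pairs of cytosolic (filled) and mitochondrial (open) synthetases of the same amino acid, in the knockout (KO, left) and in wild-type (WT, right). In wild-type the filled point lies to the right in all 17 pairs, by 0.01 for Eprs and Ears2 up to 1.80 for Wars and Wars2, and in the knockout it does so in 15.

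The challenge response of the knockout went the same way for the cytosolic set, with smaller values. Of the 20 cytosolic genes, 13 rose, 0 fell and 7 were not called (edgeR), where 27.0% of all tested genes were called, 15.6% higher and 11.5% lower. Their median was 0.30 (-0.02 to 0.58), and all 13 were among the 19 that rose in wild-type. Of the 16 mitochondrial genes, 1 rose, 1 fell and 14 were not called (median -0.03, -0.35 to 0.33). Of all called genes of this comparison, 57.5% were higher, and 46.7% with upper-quartile scaling, under which the cytosolic median was 0.25. The groups did not overlap for 15 cytosolic and 5 mitochondrial genes, against 39.3% of all tested genes. Without challenged knockout replicate 3 and unchallenged wild-type replicate 4, the libraries that stood apart, 11 cytosolic genes rose.

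Wars was again the highest of the set, with 107, 100 and 95.5 CPM in challenged knockout libraries, against 65.7, 64.5 and 70.4 CPM in unchallenged knockout ones, and rose by 0.58 ± 0.07 (edgeR adjusted p = 1.39e-05). Rars had 65, 66.9 and 64.8 CPM in challenged knockout libraries, against 47, 44.8 and 49.7 CPM in unchallenged knockout ones, and rose by 0.47 ± 0.06. Eprs had 151, 153 and 152 CPM in challenged knockout libraries, against 110, 107 and 113 CPM in unchallenged knockout ones, and rose by 0.45 ± 0.05. These 3 genes had no overlap between the groups. Farsb had 45.6, 49.8 and 51.6 CPM in challenged knockout libraries, against 33.3, 39.2 and 34.7 CPM in unchallenged knockout ones, and rose by 0.45 ± 0.08. Cars had 39.1, 38.2 and 35.6 CPM in challenged knockout libraries, against 26.6, 28.2 and 29.5 CPM in unchallenged knockout ones, and rose by 0.41 ± 0.07. Aars had 125, 107 and 110 CPM in challenged knockout libraries, against 82.3, 85.8 and 92.3 CPM in unchallenged knockout ones, and rose by 0.38 ± 0.08. By fitted value, Cars and Aars, next to Wars at the top in wild-type, came below Rars, Eprs and Farsb in the knockout. Those gaps were near the size of the SEs, and the order was not tested.

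Dars, Kars, Iars, Nars, Gars, Tars and Hars completed the 13, at 0.43 for Dars down to 0.18 for Hars. Kars had 124, 119 and 118 CPM in challenged knockout libraries, against 87.9, 91.5 and 92.2 CPM in unchallenged knockout ones, and Gars had 96.3, 95.2 and 96.8 CPM, against 76.5, 76.8 and 80.4 CPM. Iars had 97.7, 99.7 and 97.6 CPM in challenged knockout libraries, against 78.2, 78.4 and 76.5 CPM in unchallenged knockout ones, and Nars had 116, 118 and 115 CPM, against 96.4, 92.3 and 93.4 CPM. In these 4 genes, too, the groups were apart. The call of Hars (edgeR adjusted p = 0.0427) was lost in 12 of 17 alternative settings. The 7 not called were Vars (0.20), Mars (0.18), Lars (0.15), Yars (0.13), Sars (0.12), Farsa (0.05) and Qars (-0.02). In the mitochondrial set, Ears2 had 14.7, 15.2 and 12 CPM in challenged knockout libraries, against 11.2, 10.7 and 11.1 CPM in unchallenged knockout ones, and rose by 0.33 ± 0.10 (edgeR adjusted p = 0.0207). Wars2 had 17, 15.8 and 15.9 CPM in challenged knockout libraries, against 19.9, 18.5 and 19.8 CPM in unchallenged knockout ones, and changed by -0.26 ± 0.09 (edgeR adjusted p = 0.0411). Neither gene's groups overlapped, yet the call of Ears2 was lost in 6 and that of Wars2 in 9 of 17 alternative settings. Mars2, the member with the deepest fall in wild-type, had 30, 37.2 and 32.2 CPM in challenged knockout libraries, against 38.9, 32.9 and 30.1 CPM in unchallenged knockout ones. These libraries overlapped, with a fold change of -0.04 ± 0.10 (edgeR adjusted p = 0.791).

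Between challenged knockout and challenged wild-type libraries, which are the same libraries as in the responses above, the cytosolic set was lower in the knockout. Of the 20 genes, 18 were called lower, 0 higher and 2 not called (edgeR), where 48.7% of all tested genes were called, 25.9% lower and 22.7% higher. The median was -0.39 (-0.82 to -0.05), beside 0 over all tested genes, and -0.30 with library totals alone, a setting that raised the share of called genes that were higher to 59.2%, against 46.7%, and moved the median of all genes by 0.10. Wars (-0.82 ± 0.07), Aars (-0.80 ± 0.08), Cars (-0.77 ± 0.07) and Kars (-0.56 ± 0.06) differed most (edgeR adjusted p = 1.05e-07, 5.43e-07, 2.07e-07 and 2.1e-06). Every challenged knockout library lay below every challenged wild-type one for 15 of the 20, against groups without overlap in either direction for 53.6% of all tested genes. The other 5 were Farsa, Hars, Lars, Qars and Vars, and challenged knockout replicate 1 of Vars stood at 424 CPM beside 304 and 310 CPM in the other two. Vars and Qars lost their calls in 7 and 11 of 17 alternative settings. Without the pair of libraries that stood apart, 16 cytosolic genes were called lower.

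In the mitochondrial set of this comparison, 3 genes were higher in the knockout, 2 were lower and 11 were not called, and the median of -0.05 changed sign with upper-quartile scaling (0.03) and with library totals alone (0.05). Wars2 (0.41 ± 0.09), Mars2 (0.33 ± 0.10) and Iars2 (0.21 ± 0.06) were higher, and Ears2 (-0.39 ± 0.10) and Tars2 (-0.33 ± 0.08) were lower. Iars2 had 77.8, 74.2 and 74 CPM in challenged knockout libraries, against 60.2, 58.9 and 64 CPM in challenged wild-type ones (edgeR adjusted p = 0.00966). All 5 had groups that did not overlap. Means rose from unchallenged knockout to challenged knockout to challenged wild-type libraries for 18 of 20 cytosolic and 5 of 16 mitochondrial genes. Genes whose means fell in that order were not counted here, among them Cars2, Hars2, Iars2, Mars2, Pars2, Vars2 and Wars2. For Wars2 the means in that order were 19.4, 16.3 and 11.5 CPM.

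Without challenge, 0 of the 20 cytosolic and 0 of the 16 mitochondrial genes were called between knockout and wild-type by edgeR, where 11.7% of all tested genes were called, 6.64% higher and 5.07% lower. At an unadjusted p below 0.05, edgeR gave 5 cytosolic genes (2 higher and 3 lower) and 2 mitochondrial genes (1 higher and 1 lower), and DESeq2 also called 0 of either set. Medians were -0.06 (-0.15 to 0.16) and -0.03 (-0.18 to 0.25). Wars, for one, had 65.7, 64.5 and 70.4 CPM in unchallenged knockout libraries, against 65.4, 69.8 and 70.9 CPM in unchallenged wild-type ones, which overlapped. The groups were apart for 8 cytosolic and 4 mitochondrial genes, against 32.6% of all tested genes.

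The difference between the challenge responses, knockout minus wild-type, was tested as an interaction. It was called below 0 for 12 of 20 cytosolic genes and above 0 for none of them (edgeR), where 35.2% of all tested genes were called, 18.5% below and 16.7% above 0, with 14 below 0 at an unadjusted p under 0.05 and 13 by DESeq2. The share of called genes above 0 was 47.5%, and 61.7% with library totals alone, where the cytosolic median was -0.25 in place of -0.37. Cars (-0.81 ± 0.10), Aars (-0.80 ± 0.11) and Wars (-0.80 ± 0.09) had the largest differences (edgeR adjusted p = 1.31e-05, 4.02e-05 and 1.22e-05). Iars, Kars, Mars and Rars of the multi-synthetase complex and Gars, Hars, Nars, Sars and Yars of the free enzymes made up the rest of the 12, at -0.26 for Sars to -0.44 for Kars. Eprs (-0.16), Farsb (-0.25), Dars (-0.22), Tars (-0.20) and Vars (-0.36 ± 0.18) were among the 8 not called. In the mitochondrial set Mars2 (0.49 ± 0.14) and Iars2 (0.24 ± 0.08) were called above 0 (edgeR adjusted p = 0.0136 and 0.04), and Iars2 lost the call in 12 of 22 alternative settings. Rab3gap2, which shares exon length with Iars2, was also called above 0 (0.25, edgeR adjusted p = 0.0299). Of the cytosolic calls, Sars was lost in 7 of the 22, Mars in 4 and Yars in 1, and with library totals alone their edgeR adjusted p was 0.157, 0.0782 and 0.0547.

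As a summed level, the 20 cytosolic genes together held 2000 to 2170 CPM in challenged knockout, 1660 to 1750 in unchallenged knockout, 2470 to 2700 in challenged wild-type and 1750 to 1830 in unchallenged wild-type libraries. The mitochondrial sum was governed by Lars2, which made up 37.7% to 67.7% of it. Without Lars2, left out after its values were seen, the other 15 summed to 381 to 414 CPM in challenged knockout, 398 to 408 in unchallenged knockout, 352 to 385 in challenged wild-type and 414 to 431 in unchallenged wild-type libraries. The ratio of the cytosolic sum to this sum was 5.09 to 5.24 in challenged knockout, 4.17 to 4.29 in unchallenged knockout, 7 to 7.05 in challenged wild-type and 4.16 to 4.24 in unchallenged wild-type libraries. The ratio thus separated both challenged groups from the unchallenged ones and from each other, while the unchallenged groups overlapped. The ratio depends on transcript lengths and is compared only between groups. The summed genes of dividing cells and the neutrophil markers had the same order of the challenged groups, and the NK cell markers the reverse order. Gene by gene, in challenged knockout against challenged wild-type, 10 of the 10 genes of dividing cells were called lower by edgeR, 6 of the 10 neutrophil markers were lower and 4 higher (Camp 1.03, Mpo 0.66, Elane 0.65 and Ltf 0.58 on the log2 scale), and 8 of the 10 NK cell markers were higher and 1 (Prf1, -0.75) lower. Their part in the synthetase results was not tested.

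**Figure D4:**
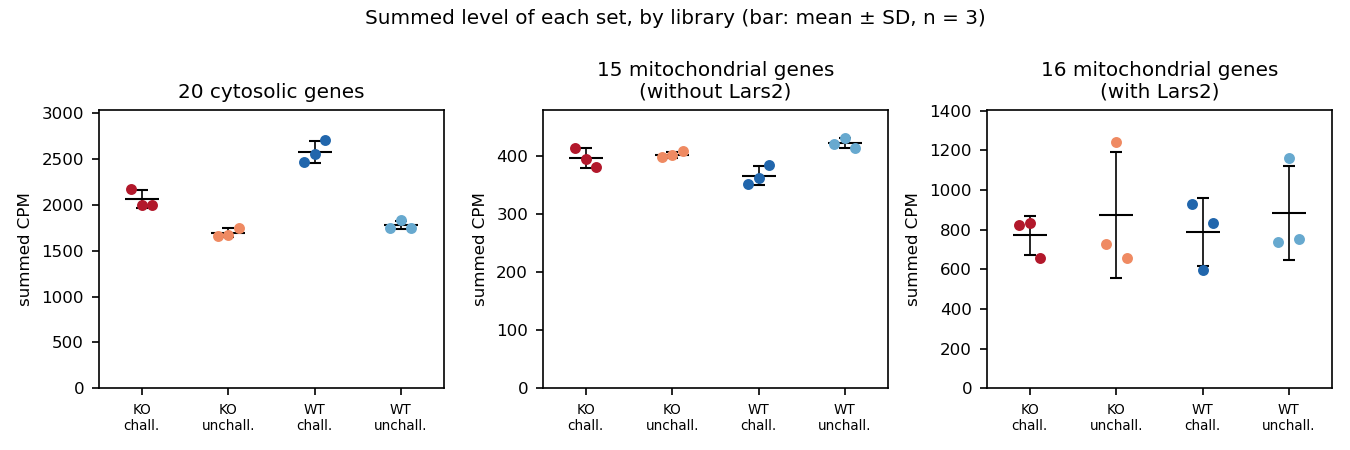
Summed CPM per library (1 point each, mean ± SD, n = 3) of the 20 cytosolic genes, of 15 mitochondrial genes without Lars2 and of all 16 mitochondrial genes, in challenged and unchallenged knockout (KO) and wild-type (WT) libraries. The cytosolic sum is 2470 to 2700 CPM in challenged wild-type libraries, above every other library, and the sum of 16 spreads with Lars2.

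Genes that work around the synthetases were read from lists of the same pathway, with the same test and the background shares given above. Of 9 cytosolic charging partners, 5 rose and 2 fell in wild-type, and 2 rose and 1 fell in the knockout. Eef1e1, a scaffold of the multi-synthetase complex, rose by 1.08 ± 0.14 in wild-type and by 0.58 ± 0.14 in the knockout, and its fellow scaffold Aimp2 by 0.67 and 0.34. Pstk, a kinase in the making of selenocysteyl-tRNA, had 8.92, 8.98 and 10.5 CPM in challenged wild-type libraries, against 19.4, 24.1 and 19.6 CPM in unchallenged ones (-1.05 ± 0.11, edgeR adjusted p = 1.11e-06). Among mitochondrial charging partners, Mtfmt, which formylates the mitochondrial initiator tRNA, and Trmu, which modifies mitochondrial tRNAs, were called lower in wild-type (-0.50 and -0.63), and neither was called in the knockout (-0.18 and -0.24, edgeR adjusted p = 0.0896 and 0.144).

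Downstream of charging, 7 of 8 cytosolic elongation and termination factors rose in wild-type and 5 in the knockout, with 0 falling in either (medians 0.50 and 0.21). Eif5a, which relieves stalled ribosomes, rose by 0.89 ± 0.06 in wild-type and 0.38 in the knockout, and the release factor Etf1 by 0.86 and 0.46. Of 9 mitochondrial elongation and release factors, 4 rose and 2 fell in wild-type, and 2 rose and 0 fell in the knockout (medians 0.16 and 0.02). Tufm, the mitochondrial elongation factor that carries charged tRNA, rose by 0.68 and 0.27 in wild-type and the knockout. Of 27 mitochondrial ribosomal protein genes, 21 rose and 2 fell in wild-type (median 0.49), and 11 rose in the knockout (median 0.23). Mrpl12 of the large subunit rose by 1.12 ± 0.10 and 0.60 ± 0.10. No test was made between lists.

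The integrated stress response senses uncharged tRNA among other signals, and its list with amino acid supply had 20 of 24 genes rising and 1 falling in wild-type (median 0.76), and 12 rising in the knockout (median 0.26). Psat1, an enzyme of serine synthesis, had 86.4, 89.1 and 95.5 CPM in challenged wild-type libraries, against 36.4, 33.8 and 34.3 CPM in unchallenged ones. It rose by 1.48 ± 0.07 in wild-type and by 0.83 ± 0.07 in the knockout. Eif2ak2, an interferon-induced kinase that halts initiation, rose by 1.76 and 0.83, and Cebpb, a partner of ATF4, by 2.71 and 1.18. Atf4 itself rose by 0.36 ± 0.06 in wild-type and was not called in the knockout (0.11, edgeR adjusted p = 0.214). Eif2ak4, another kinase of the list, was not called in wild-type (0.13, edgeR adjusted p = 0.12). It rose in the knockout (0.29, edgeR adjusted p = 0.00786). Between challenged knockout and challenged wild-type libraries 17 of the 24 were lower and 1 higher (median -0.45).

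**Figure D5:**
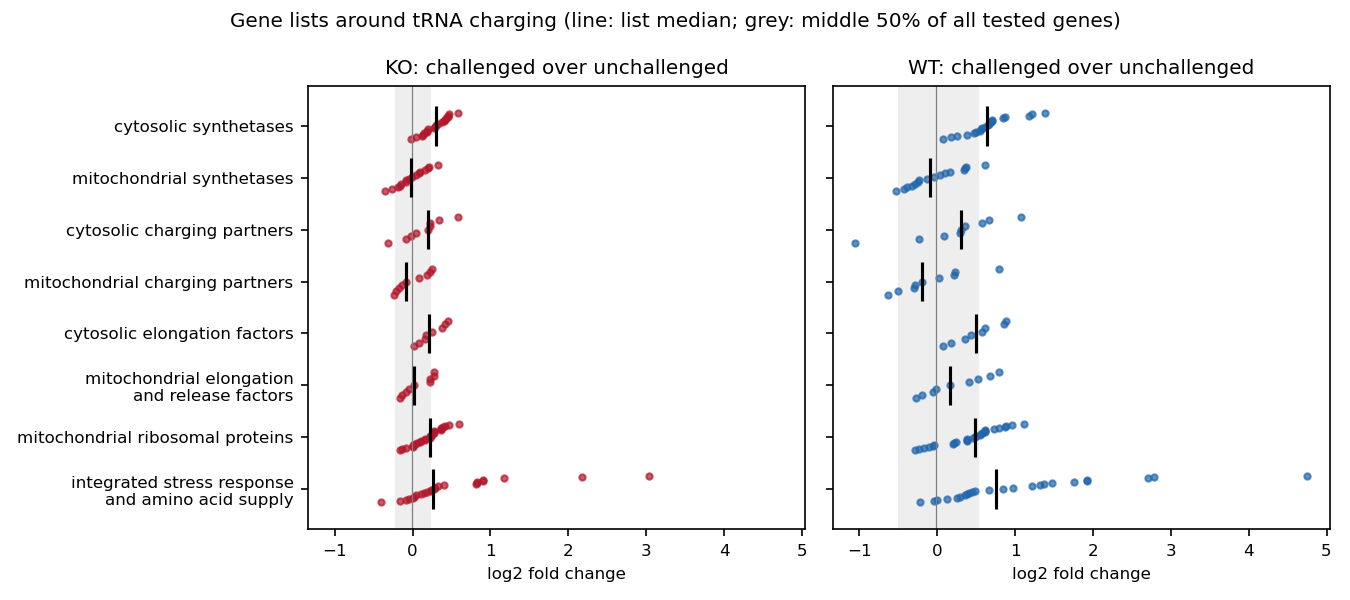
Log2 fold changes of challenged over unchallenged libraries for the genes of 8 lists around tRNA charging, in the knockout (KO, left) and in wild-type (WT, right), with the list median as a black line and the middle 50% of all tested genes in grey. In wild-type the medians of the cytosolic synthetases (0.63) and of the stress response list (0.76) lie right of the grey band, and that of the mitochondrial synthetases (-0.08) lies inside it.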

How the data were processed

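The authors deposited a table of counts of 50643 genes in 12 libraries, not normalized. The submitters' processing notes name GRCm38 as the genome and, as tools, RSEM 1.3.0, Bowtie2 2.2.8, Trim Galore 0.4.1 and bcl2fastq. RSEM gives estimated counts, while the values here were whole numbers, and the rounding and the strand setting are not stated in the labels. RNA was polyadenylated RNA prepared with Trizol and the Illumina TruSeq RNA kit, per the labels. The 12 value columns were all used (0 were left out).

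Genes passing filterByExpr over the 4 groups (16694) were scaled by TMM and tested with edgeR 4.0.16 (robust quasi-likelihood, R 4.3.3, limma 3.58.1) in a single group-means model of all 12 libraries. There were 5 comparisons, each adjusted over the genes tested by Benjamini-Hochberg. Standard errors come from the fold change and its F statistic. Levels (CPM) use the column total without TMM factors, so a ratio of printed levels can differ from the fitted fold. Levels per kilobase use the length of the principal transcript in GENCODE vM21 (GRCm38). Alternatives were RLE and upper-quartile scaling, library totals alone, other count filters, a replicate block, only the groups compared, DESeq2 1.42.0 and leaving out each library. Some items of the lists and promoters are not reported here. Scripts were tested on simulated data, and Python 3.11.15, pandas 2.3.3 and matplotlib 3.10.9 were used.

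Within groups, libraries differed by 3.38 to 26.9 times the counting noise, so none was a duplicate. Members, lists, motifs and tests were chosen with earlier results of these data known, and list counts are descriptions. Members given by library were the 4 largest called changes per direction and comparison, up to 8 with the smallest p in the interaction, Wars, Wars2, Kars and Gars. Genes named from other lists had the smallest p in the wild-type response. Ears2, Lars2, Qars, Atf4 and Eif2ak4 were added after their values were seen, as were other members given only by a fold change.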

Additional observations from a re-analysis of the deposited data

Results flagged for a closer look

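The challenge response differed between knockout and wild-type, by edgeR's interaction test at an adjusted p below 0.05, for 14 of the 36 synthetase genes. The interaction, knockout response minus wild-type response on the log2 scale, was -0.81 for Cars, -0.80 for Wars, -0.80 for Aars, -0.44 for Kars, -0.40 for Rars, -0.39 for Nars, -0.39 for Mars, -0.37 for Iars, -0.37 for Gars, -0.37 for Hars, -0.36 for Yars and -0.26 for Sars. These 12 are cytosolic, and in each of them the knockout fold change was the smaller one. The mitochondrial Mars2 stood at 0.49 and Iars2 at 0.24, where wild-type transcripts fell and the knockout changes of -0.04 and -0.15 were not called. Rab3gap2, whose exons overlap those of Iars2 on the other strand, stood at 0.25 (edgeR adjusted p = 0.0299), and whether the counting used strand is not stated. Xist averaged 749 CPM in challenged and 0.728 CPM in unchallenged knockout libraries, against 1330 and 1650 CPM in challenged and unchallenged wild-type ones, so the interaction cannot be told apart from sex composition, which differed with challenge within the knockout.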

How the results depend on the processing

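Of 79 calls of single members, 64 were kept under all alternatives, and of 1413 checks of a call 88 were lost and 0 reversed. In the knockout response, the single mitochondrial gene called lower became 2 with RLE scaling, with upper-quartile scaling and with DESeq2, and 0 with no count filter, with only the groups compared and without the 2 libraries that stood apart, an alternative chosen after seeing the data. The single one called higher became 0 with only the groups compared. Between challenged groups, mitochondrial genes called higher in the knockout went to 5, against 3, with upper-quartile scaling and with library totals alone. With library totals alone, 1 cytosolic gene was called lower in unchallenged knockout. Mitochondrial interaction calls above 0 went to 1, against 2, with no count filter, without the 2 libraries and with a replicate block on the second number (added after seeing the data). For these changes the cause was not tested. With 1 library left out at a time, cytosolic genes called were 18 to 19 (wild-type response), 12 to 13 (knockout response), 16 to 18 (challenged groups) and 10 to 14 (interaction). Mitochondrial genes called higher and lower were 3 to 4 and 5 in wild-type, 0 to 1 and 0 to 3 in the knockout, 2 to 4 and 2 to 3 between challenged groups, and 1 to 2 and 0 to 1 in the interaction. The labels do not say whether the replicate numbers pair the libraries. Over 10 pairs of equal first title number that share genotype or treatment, the correlation of residuals was -0.317 to 0.249, and above 0.1 in 3. Unchallenged titles carry a second number, by which it was -0.317 to 0.158 over 12 pairs, and above 0.1 in 2. With 3 libraries in each group, such correlations cannot decide whether libraries are paired. With a replicate block, the mitochondrial calls of the knockout response went to 0 higher and 0 lower, and the cytosolic counts were 19, 12, 17 and 12. Nars2 and Pars2 had the lowest counts and so the least precise counting.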

Other observations

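The unchallenged groups, between which no synthetase was called by edgeR, did differ in genes of dividing cells and of other blood cells. Of 10 genes of dividing cells, 9 were called higher in unchallenged knockout than in unchallenged wild-type libraries (median log2 fold change 0.61), with sums of 787 to 819 CPM in unchallenged knockout and 438 to 560 CPM in unchallenged wild-type libraries. Of 10 neutrophil markers 9 were higher (median 3.06), and all 8 erythroid markers were higher (median 1.70). The cytosolic synthetase sum was 1660 to 1750 CPM in unchallenged knockout and 1750 to 1830 CPM in unchallenged wild-type libraries. Any relation of these markers to the synthetase levels was not tested. Of 8 B cell markers 7 were called lower in unchallenged knockout libraries.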
